A study of Bos taurus with 12 samples.

Results

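The miR-99/100 family (bta-miR-99a-5p, bta-miR-99b and bta-miR-100) and the miR-125 family (bta-miR-125a and bta-miR-125b) were examined in small RNA sequencing data of the bovine mammary gland. The 5 miRNAs were chosen by name, with earlier results of these data known. They take up 6 of the 426 rows of the deposited table, in which a row pairs a mature miRNA with a precursor, and the table holds 383 other mature miRNAs. Below they are named without the species prefix. For miR-125b, which is listed with 2 precursors, the entry of bta-mir-125b-2 had the higher mean and was used, and the other entry differed from it by at most 0.358% in any library. Biopsies of a rear gland were taken from 12 healthy multiparous Chinese Holstein cows, and each library came from a different cow. The 4 groups held 3 libraries each, with HP and LP for cows of high and low milk protein percentage biopsied at 70 to 85 days in milk, and HD and LD for high and low cows biopsied in the non-lactating period. The non-lactating cows were sampled 24 to 35 days after dry-off. The days before calving were 35, 29 and 21 for HD replicates 1, 2 and 3 and 39, 23 and 20 for LD replicates 1, 2 and 3. The lactating and non-lactating cows were different animals, so stage and animal cannot be told apart.

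A miRNA is a short RNA that guides the Argonaute protein to messenger RNAs paired with its seed, the bases near its 5′ end, and lowers their translation or stability. The members of the miR-99/100 family share a seed and are known to target *MTOR* and *IGF1R*, and the miR-125 members share a different seed and are known to target the growth factor receptor genes *ERBB2* and *ERBB3* and the pluripotency factor *LIN28A*. Both families are encoded together with a let-7 miRNA, and let-7 miRNAs are widely known as inducers of differentiation. In the RefSeq gene table of ARS-UCD2.0, MIR99A, MIRLET7C and MIR125B-2 lie on chromosome 1, MIR100, MIRLET7A-2 and MIR125B-1 on chromosome 15, and MIR99B, MIRLET7E and MIR125A on chromosome 18. miR-125b can arise from both of its loci, and its level cannot be split between them. miR-99a-5p and miR-100 are near-identical in sequence and reads were mapped with a mismatch allowed, so the split of reads between them is uncertain.

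Levels are given in the authors' TPM, which is RPM without a correction for length. The reads implied by the steps of the deposited values ranged from 6.0 to 13.4 M (M, 1e6 reads) per lactating library and from 11 to 23.6 M per non-lactating library, and 3 reads correspond to at most 0.498 TPM in any library, far below each of the 5 miRNAs. These totals run over all 426 rows, in which reads of a miRNA with several precursors can count more than once, so they are not library sizes. Normalized TPM is TPM divided by a median-of-ratios size factor over the 12 libraries. The size factors were between 0.805 and 1.14 in the lactating and between 0.764 and 1.5 in the non-lactating libraries, with 1.5 in both HD replicate 1 and LD replicate 1. All 6 markers of epithelium were present in every library, with a summed level of 14978 to 44371 TPM. LD replicate 1 stood apart from the other non-lactating libraries in miR-148a, a miRNA abundant in secretory mammary epithelium (53312 TPM against 15769 to 24465), and in the summed leukocyte markers (20486 TPM against 8262 to 11209). LD replicate 2 had 6127 TPM of the red blood cell markers, against 413 to 773 in the other 5. Results are therefore also given without LD replicate 1 where it changes them.

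miR-100 was the most abundant member of its family and ranked 28th of all miRNAs by mean TPM. It had 1301, 4504 and 3715 TPM in HP replicates 1, 2 and 3, and 3168, 2444 and 1891 TPM in LP. In the non-lactating period it had 3578, 6033 and 6695 TPM in HD and 3046, 6776 and 8021 TPM in LD. The lowest library of all was HP replicate 1, which also had the fewest implied reads, and the highest were LD replicates 3 and 2 and HD replicate 3, the libraries taken closest to calving.

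miR-99a-5p ranked 35th. Its values were 1285, 3261 and 3295 TPM in HP and 2908, 1900 and 1954 TPM in LP. They were 3579, 4023 and 5770 TPM in HD and 2533, 5602 and 7283 TPM in LD. HP replicate 1 was again the lowest library and LD replicate 3 the highest. miR-99b, the least abundant of the 5 at rank 50, had 620, 1762 and 1788 TPM in HP and 1430, 942 and 843 TPM in LP. It had 1700, 1853 and 2117 TPM in HD and 1521, 1951 and 2626 TPM in LD, so that the same libraries stood at both ends.

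The miR-125 members were more abundant and varied less. miR-125a ranked 13th, with 9963, 13806 and 14290 TPM in HP and 7900, 9582 and 7668 TPM in LP. It had 17769, 14664 and 14163 TPM in HD and 12057, 12900 and 13069 TPM in LD. Here the lowest values were those of the LP group and the highest was HD replicate 1. miR-125b ranked 19th and had 7249, 10684 and 11267 TPM in HP and 5021, 7549 and 4793 TPM in LP. Its values were 12292, 13736 and 9035 TPM in HD and 8807, 9086 and 8226 TPM in LD. Over the 12 libraries the coefficient of variation of TPM was 49.5%, 35.7% and 50.3% for miR-99a-5p, miR-99b and miR-100, and 24.5% and 30.1% for miR-125a and miR-125b.

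**Figure D1:**
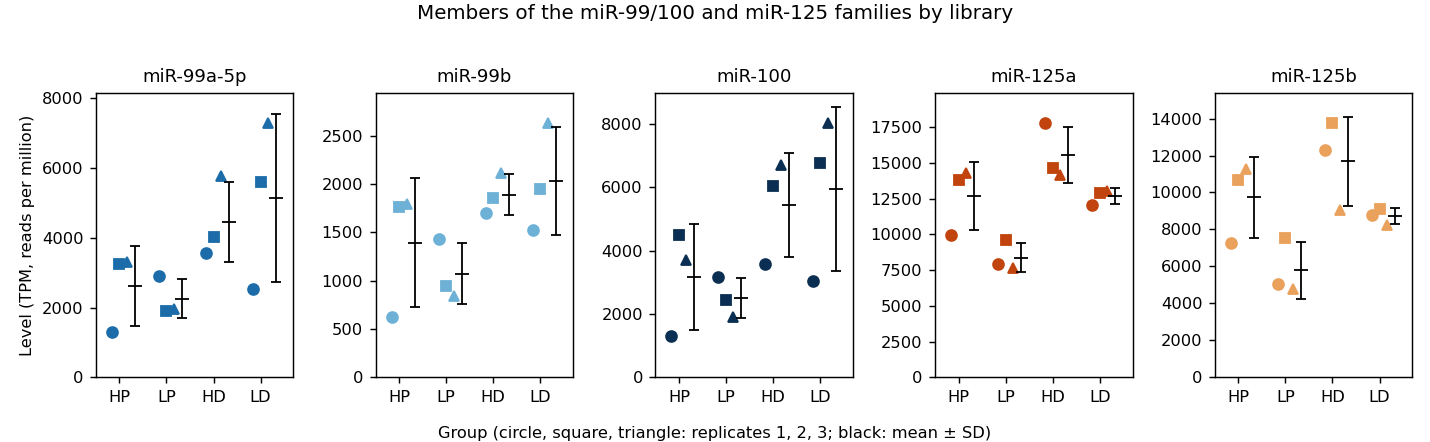
TPM (RPM, linear axes from 0) of each miRNA in the 12 libraries by group, with the replicate shown by the symbol and the mean ± SD of each group (n = 3) in black. miR-99a-5p spreads from 2533 to 7283 TPM within LD, whereas the LP libraries are the lowest group for miR-125a, from 7668 to 9582 TPM.

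For the miR-99/100 members the order of the group means was LD, HD, HP and LP in TPM and in normalized TPM. miR-99a-5p, for example, had 5140 ± 2409 TPM in LD, 4458 ± 1158 in HD, 2614 ± 1151 in HP and 2254 ± 567 in LP (SD, n = 3). Among these neighbours only HD and HP of miR-99a-5p did not overlap in TPM (42.3% of all miRNAs did not overlap between HD and HP), and all neighbours of miR-99b and miR-100 overlapped. For the miR-125 members the order in TPM was HD, HP, LD and LP. miR-125a had 15532 ± 1954 TPM in HD, 12686 ± 2371 in HP, 12675 ± 542 in LD and 8383 ± 1045 in LP, and miR-125b had 11688 ± 2408, 9733 ± 2171, 8706 ± 439 and 5787 ± 1529 TPM in the same order (SD, n = 3). In both miRNAs LD and LP did not overlap in TPM, and the other neighbours did, where 25.5% of all miRNAs did not overlap between LD and LP. This order depended on scaling for miR-125a, whose means in normalized TPM were 13945 in LD, 13397 in HD, 12524 in HP and 8804 in LP.

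Within a library the order of the 5 miRNAs was nearly fixed. miR-125a exceeded miR-125b in 12 of 12 libraries, by 1.07 to 1.60 times, and miR-125b exceeded miR-100 in 12 of 12, by 1.03 to 5.57 times. miR-100 exceeded miR-99a-5p in 10 of 12 libraries, with LP replicate 3 and HD replicate 1 as the exceptions, and miR-99a-5p exceeded miR-99b in 12 of 12. Mature miRNAs are of nearly equal length, and the order is one of reads, which also depend on how well each sequence is ligated and amplified. The ratio of miR-99a-5p to miR-100 stayed between 0.667 and 1.03. Because the split of reads between these near-identical miRNAs is uncertain, the ratio does not show how the 2 loci compare. The 5 miRNAs together took 2.02% to 5.41% of all mature miRNA reads.

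The first comparison asked whether the miRNAs differ with milk protein percentage in lactation. Both miR-125 members were lower in LP in the fit of normalized values. miR-125b was 1.65-fold lower (log2 change -0.72, SE 0.26, unadjusted p = 0.0189, Benjamini-Hochberg adjusted p = 0.251, limma), and miR-125a was 1.47-fold lower (log2 change -0.55, SE 0.24, unadjusted p = 0.0459, adjusted p = 0.307, limma). Neither passed the rule for differential expression (DE), an unadjusted p under 0.05 with an absolute log2 change over 0.8, nor an adjusted p of 0.05. In normalized TPM miR-125a had 10503, 14079 and 12990 in HP against 9815, 8419 and 8179 in LP, and miR-125b had 7642, 10895 and 10242 against 6238, 6632 and 5112. HP and LP thus did not overlap for 2 of the 5 miRNAs, where 20.6% of all miRNAs did not overlap. The exact two-sided permutation p was 0.1 for each of the pair, the smallest that 3 libraries against 3 can give. As deposited, without size factors, miR-125a still separated the groups (17.3% of all miRNAs did) and miR-125b did not, since LP replicate 2 (7549 TPM) exceeded HP replicate 1 (7249 TPM).

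For the miR-99/100 members the HP and LP values overlapped. The log2 change of LP over HP was -0.08 for miR-99a-5p (95% interval -0.97 to 0.80), -0.23 for miR-99b (-1.18 to 0.73) and -0.16 for miR-100 (-1.15 to 0.83), with adjusted p between 0.879 and 0.947 (limma, Benjamini-Hochberg). These intervals are wide on both sides of 0. With limma, 0 of the 5 miRNAs were DE, against 10.1% of all miRNAs (39 miRNAs). An unadjusted p under 0.05 was found for 2 of the 5 and 15.7% of all miRNAs, and an adjusted p under 0.05 for 0 of the 5 and 0.258%. The median log2 change of the 5 was -0.23, beside -0.01 over all miRNAs. miR-125b passed the DE rule when HP replicate 1 was left out (log2 change -0.88) or LP replicate 2 was left out (-0.83). In LP, 2 of the 3 red blood cell markers and 1 of the 2 smooth muscle markers were DE higher and 1 of the 5 leukocyte markers DE lower, and 0 of the other markers were DE. The summed smooth muscle markers were 58589 to 84391 TPM in HP and 112785 to 145006 TPM in LP, nearly all of it miR-143. The other marker, miR-145, had 73.7, 4.57 and 9.67 TPM in HP and 4.56, 35.5 and 4.92 TPM in LP. Its log2 change was in the other direction (-0.61, adjusted p = 0.858, limma). The part of these markers in the miR-125 values was not tested.

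The same question was asked of HD and LD in the non-lactating period. Here 0 of the 5 miRNAs were DE with limma, against 3.35% of all miRNAs, and 0 of the 5 had an unadjusted p under 0.05, against 4.9%. The log2 change of LD over HD was 0.34 for miR-99a-5p (95% interval -1.25 to 1.93), 0.31 for miR-99b (-0.84 to 1.47), 0.30 for miR-100 (-1.31 to 1.92), -0.05 for miR-125a (-0.94 to 0.84) and -0.17 for miR-125b (-1.02 to 0.68), each with a limma adjusted p of 0.993. The median of the 5 was 0.30, beside 0.03 over all miRNAs. In normalized TPM HD and LD overlapped for all 5, where 9.54% of all miRNAs did not. As deposited, miR-125a was lower in LD than in HD in every library (7.22% of all miRNAs did not overlap in TPM, exact two-sided permutation p = 0.1), although the normalized values did not keep this order. Of the non-lactating libraries, LD held both the one with the least and the one with the most of each miR-99/100 member in normalized TPM, LD replicates 1 and 3. Without LD replicate 1, miR-99a-5p (log2 change 1.14) and miR-99b (0.85) became DE and the sign of miR-125a (0.34) and miR-125b (0.18) turned, with adjusted p of 0.388 or more (limma). That fit set LD libraries at 23 and 20 days before calving against HD libraries at 35, 29 and 21 days. Phenotype and days before calving cannot be told apart in it. In LD, 2 of the 5 leukocyte markers and 1 of the 2 endothelial markers were DE higher and 0 of the other markers were DE.

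The difference between the phenotype effects of the 2 stages was tested as an interaction over all 12 libraries. It was 0.41 for miR-99a-5p, 0.52 for miR-99b, 0.44 for miR-100, 0.49 for miR-125a and 0.54 for miR-125b on the log2 scale, and the 95% intervals all included 0 (from -1.52 to 2.41 at the widest, for miR-100). The limma adjusted p was 0.963 or 0.993. Of the 5 miRNAs 0 were called, as were 0% of all miRNAs, while 20 of them (5.15%) and 0 of the 5 had an unadjusted p under 0.05. A dependence of the phenotype difference on stage was not detectable for these miRNAs at this number of libraries.

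Lactation was then compared with the non-lactating period. All 5 miRNAs were higher in the non-lactating libraries on average, and none of the changes passed the test. In TPM, miR-100 had 2837 ± 1189 in the lactating and 5691 ± 1959 in the non-lactating libraries, miR-99a-5p had 2434 ± 835 and 4799 ± 1731, and miR-99b had 1231 ± 498 and 1961 ± 385 (SD, n = 6). miR-125a had 10535 ± 2871 and 14104 ± 2023 TPM, and miR-125b had 7760 ± 2737 and 10197 ± 2250 TPM (SD, n = 6). The fitted log2 change was 0.93 for miR-100 (SE 0.45, adjusted p = 0.117), 0.87 for miR-99a-5p (SE 0.43, adjusted p = 0.123) and 0.65 for miR-99b (SE 0.36, adjusted p = 0.166, limma). It was 0.34 for both miR-125a (SE 0.21, adjusted p = 0.212) and miR-125b (SE 0.21, adjusted p = 0.228, limma). With limma 0 of the 5 were called, and 0 had an unadjusted p under 0.05, whereas 44.3% of all miRNAs were called, 22.2% in each direction, and 50.5% had an unadjusted p under 0.05.

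The values of the stages overlapped for all 5 miRNAs, both in normalized TPM (21.9% of all miRNAs did not overlap) and in TPM (15.2%). Of the 6 non-lactating libraries, 4 exceeded every lactating library for miR-100 in normalized TPM, and 3 did so for miR-99a-5p and for miR-99b. The non-lactating libraries within the lactating range were the earliest ones. LD replicate 1 had 1689 normalized TPM of miR-99a-5p, HD replicate 1 had 2387 and HD replicate 2 had 3609, beside 1355 to 3613 in lactation. Without LD replicate 1 all 5 miRNAs were called, with log2 changes of 1.24 for miR-99a-5p, 0.90 for miR-99b, 1.30 for miR-100, 0.52 for miR-125a and 0.49 for miR-125b and adjusted p between 0.00905 and 0.0422 (limma). Without size factors 3 were called, miR-99a-5p (0.97), miR-100 (1.04) and miR-125a (0.45). The exact two-sided permutation p of the stage difference ran from 0.0887 to 0.180 in normalized TPM and from 0.0173 to 0.106 in TPM.

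In the same comparison 5 of the 6 epithelial markers, both endothelial markers and miR-148a were lower in the non-lactating period, and 2 of the 4 stromal and 2 of the 5 leukocyte markers were higher. The summed stromal markers were 7808 to 15324 TPM in the lactating and 8966 to 24231 TPM in the non-lactating libraries, and the summed leukocyte markers were 5146 to 8911 and 8262 to 20486 TPM. No marker that is listed was at 0 in any library. Fewer cells of a type and less RNA per cell cannot be told apart in bulk tissue, and the part of tissue makeup in the change of the 5 miRNAs was not tested.

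**Figure D2:**
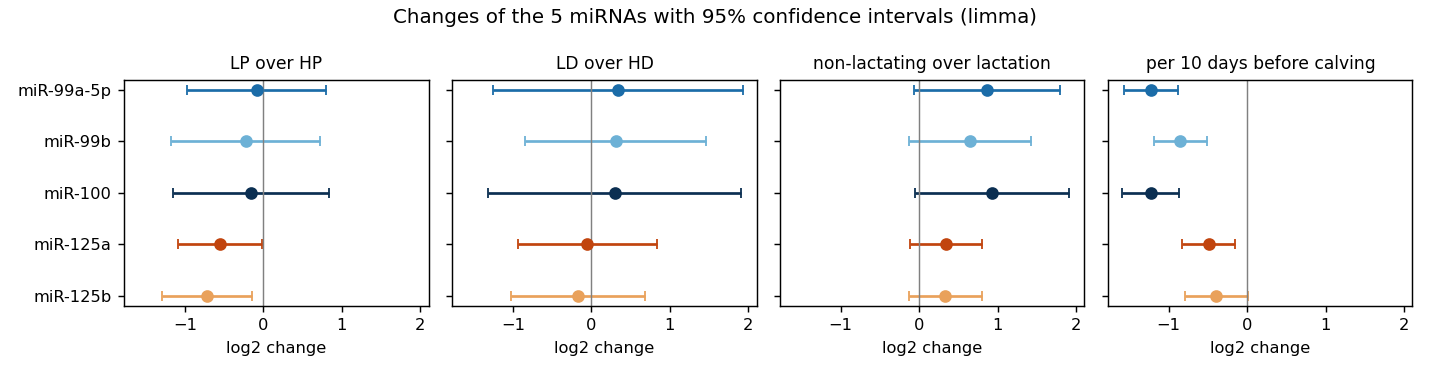
Fitted log2 change of the 5 miRNAs (points) with 95% confidence intervals (bars) from limma on size-factor normalized values, for LP over HP, LD over HD, the non-lactating period over lactation, and per 10 days further from calving. The intervals of the group comparisons include 0, except those of miR-125a and miR-125b in LP over HP, and those against days lie below 0 for all but miR-125b, although the slopes of miR-125a and miR-125b turn positive without size factors.

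The non-lactating cows were biopsied between 39 and 20 days before calving, and the miR-99/100 members were higher in the cows nearer to calving. Each library is a different cow biopsied once, so day and animal cannot be told apart. From the earliest library (LD replicate 1, 39 days) to the latest (LD replicate 3, 20 days) miR-99a-5p went from 1689 through 2387 (HD replicate 1, 35 days), 3609 (HD replicate 2, 29 days), 7336 (LD replicate 2, 23 days) and 6188 (HD replicate 3, 21 days) to 9422 normalized TPM. miR-100 went through 2031, 2386, 5412, 8874, 7180 and 10375 normalized TPM in the same libraries, and miR-99b through 1014, 1133, 1662, 2555, 2271 and 3396. For each of the 3, the order of the libraries by level was the order by nearness to calving apart from the pair at 23 and 21 days. The last library exceeded the earliest 5.58-fold for miR-99a-5p, 5.11-fold for miR-100 and 3.35-fold for miR-99b.

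In the limma fit across all miRNAs, miR-99a-5p and miR-100 had the smallest and the second smallest p of all, and miR-99b ranked 6th. Per 10 days further from calving the log2 level of miR-99a-5p fell by 1.22 (SE 0.15, adjusted p = 0.00942, limma), that of miR-100 fell by 1.23 (SE 0.16, adjusted p = 0.00942) and that of miR-99b fell by 0.85 (SE 0.14, adjusted p = 0.0198). Read toward calving, these are differences between cows of 2.34-fold, 2.35-fold and 1.80-fold per 10 days. Of the 5 miRNAs 3 were called, all with a negative slope, against 10.8% of all miRNAs in either direction, 5.67% with a negative and 5.15% with a positive slope. An unadjusted p under 0.05 was found for 4 of the 5 and 27.8% of all miRNAs. The median slope of the 5 was -0.85, beside -0.02 over all miRNAs. The 5 were chosen with earlier results of these data known, so these ranks and counts are a description. Phenotype as a covariate left the slopes at -1.21, -0.84 and -1.22 for miR-99a-5p, miR-99b and miR-100, with adjusted p of 0.0199 to 0.0242 (limma). Within HD alone the slopes were -0.98, -0.71 and -1.10, and within LD alone -1.31, -0.89 and -1.27, with 3 libraries each and no test.

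For miR-125a and miR-125b the course was shallower. In the same libraries from 39 to 20 days miR-125a had 8038, 11848, 13154, 16893, 15189 and 16905 normalized TPM, and miR-125b had 5871, 8196, 12322, 11898, 9689 and 10641. The slope per 10 days further from calving was -0.49 for miR-125a (SE 0.15, unadjusted p = 0.0103, adjusted p = 0.0724, limma) and -0.39 for miR-125b (SE 0.18, unadjusted p = 0.0558, adjusted p = 0.188, limma), and neither was called. In TPM as deposited their slopes turned to 0.04 and 0.15. The last library exceeded the earliest 2.10-fold for miR-125a and 1.81-fold for miR-125b in normalized TPM, but 1.08-fold and 0.934-fold in TPM. The sum of the miR-125 members was 2.94, 3.39, 2.38, 1.53, 1.59 and 1.19 times the sum of the miR-99/100 members in these 6 libraries, a ratio that does not depend on scaling.

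**Figure D3:**
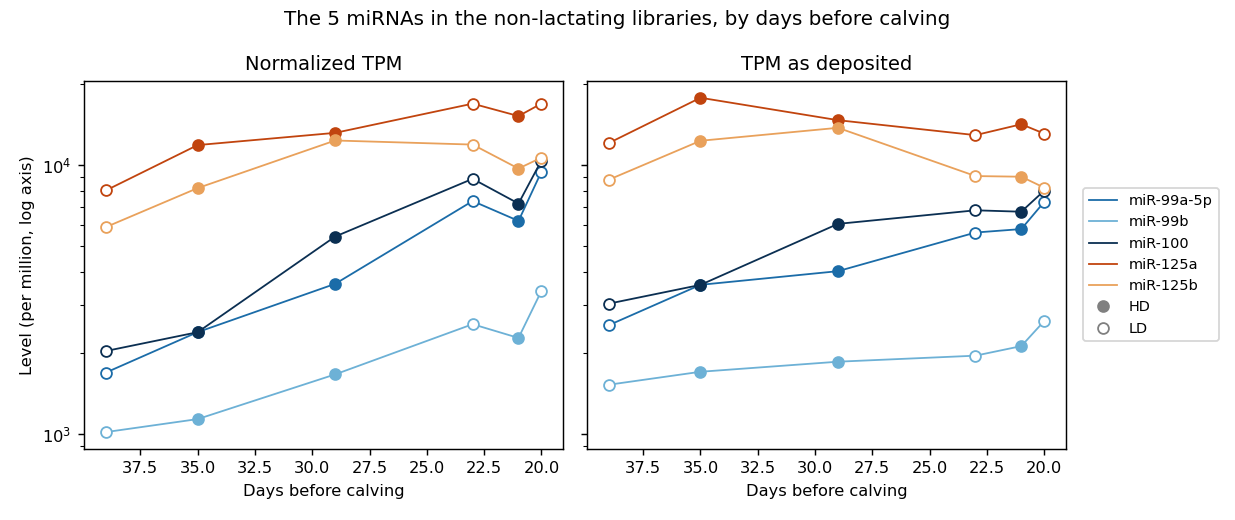
Level of the 5 miRNAs (log axes) in the 6 non-lactating libraries against days before calving, running from 39 days at the left to 20 days at the right, in normalized TPM (left panel) and TPM as deposited (right panel), with HD filled and LD open. The miR-99/100 lines climb in both panels, 5.58-fold and 2.88-fold for miR-99a-5p, whereas those of miR-125a and miR-125b climb in normalized TPM and end 1.08-fold and 0.934-fold of their start in TPM.

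Exact permutation tests over the 720 orders of the 6 libraries reached no adjusted p of 0.05 for the 5 miRNAs, and in normalized TPM, unlike the fit, they did not set miR-125a apart from the miR-99/100 members. In log2 normalized TPM, Pearson's r with days before calving was -0.982 for miR-99a-5p, -0.972 for miR-100 and -0.937 for miR-125a (exact permutation p = 0.00417 each), -0.968 for miR-99b (exact permutation p = 0.00278) and -0.756 for miR-125b (exact permutation p = 0.0778). The Benjamini-Hochberg adjusted values over all miRNAs were 0.135 for the former 4 and 0.258 for miR-125b. Spearman's rho was -0.943 for miR-99a-5p, miR-99b, miR-100 and miR-125a (exact permutation p = 0.0167, adjusted p = 0.185) and -0.486 for miR-125b (exact permutation p = 0.356, adjusted p = 0.577). These are among 776 relations, an r and a rho for each miRNA, and 0.00139 is the smallest p that 6 libraries allow for r and 0.00278 for rho. When the 2 libraries farthest from the median day, LD replicate 1 and HD replicate 1, were left out, r was -0.917, -0.876, -0.844 and -0.837 for miR-99a-5p, miR-99b, miR-100 and miR-125a, and it turned to 0.775 for miR-125b. In TPM as deposited r was -0.976, -0.906 and -0.969 for miR-99a-5p, miR-99b and miR-100 (exact permutation p = 0.00139, 0.00694 and 0.00278, adjusted p = 0.0539, 0.0855 and 0.0719), with rho of -1, -1 and -0.943 (exact permutation p = 0.00278, 0.00278 and 0.0167, adjusted p = 0.0770, 0.0770 and 0.122). For miR-125a and miR-125b r in TPM was 0.177 and 0.381 (exact permutation p = 0.763 and 0.439, adjusted p = 0.822 and 0.546).

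Several properties of the libraries moved with days before calving. From 39 to 20 days the size factors were 1.5, 1.5, 1.11, 0.764, 0.932 and 0.773, and the implied reads 14.3, 11, 22, 21.5, 23.6 and 20.9 M. Without size factors the slopes of miR-99a-5p and miR-100 were both -0.69 (adjusted p = 0.0125 each) and that of miR-99b -0.31 (adjusted p = 0.129, limma), while the median slope of all miRNAs moved from -0.02 to 0.41. Without size factors, the summed stromal markers were 21378, 22878, 24231, 15731, 13033 and 8966 TPM and the endothelial markers 10738, 8809, 6408, 6570, 5071 and 4676 TPM in the same order. On normalized values the falls were not kept, with a median slope of -0.06 for the stromal and -0.21 for the endothelial markers. Of the marker lists, 1 of 6 epithelial markers had a called negative slope, 1 of 4 stromal and 1 of 5 leukocyte markers a called positive one, and 0 of the others were called. The part of these properties in the slopes of the miR-99/100 members was not tested.

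The slopes of the miR-99/100 members changed little when any single library was left out, from -1.15 to -1.32 for miR-99a-5p, from -0.77 to -0.93 for miR-99b and from -1.15 to -1.34 for miR-100. The calls rested on the earliest libraries. Without HD replicate 1 the adjusted p was 0.0646, 0.0713 and 0.0646 for miR-99a-5p, miR-99b and miR-100, and without LD replicate 1 it was 0.119 for each (limma). In both of those fits 0 miRNAs were called, with 84 and 79 at an unadjusted p under 0.05. Without LD replicate 3 the adjusted p of miR-99b was 0.0634. Days after dry-off, the other clock of the dry period, gave slopes of 1.68, 1.22 and 1.73 per 10 days for miR-99a-5p, miR-99b and miR-100 with an adjusted p of 0.517 each (limma), and called none of the 5.

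Ratios between miRNAs that come from the same precursor or the same cluster were compared because they do not depend on the scaling of a library. miR-99a-5p and miR-99a-3p are the opposite arms of a single hairpin. Their ratio was 6.15, 14.0 and 18.9 in HP and 23.1, 7.64 and 10.8 in LP. In the non-lactating libraries it was 7.78 at both 39 and 35 days before calving, 15.2 at 29 days, 22.9 at 23 days, 27.2 at 21 days and 59.1 at 20 days. The 5p arm was thus the more abundant in every library, by a factor that varied widely among cows of the same group. The uncertain split of reads between miR-99a-5p and miR-100 may enter this ratio and the one over let-7c below, which was not tested. The level of miR-99a-3p itself did not pass the test against days on normalized values (slope 0.12, adjusted p = 0.743, limma). From 39 to 20 days it went from 217 to 159 normalized TPM, and from 326 to 123 TPM as deposited.

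miR-99b over let-7e, its cluster neighbour, was 0.543, 1.41 and 2.27 in HP and 2.94, 0.876 and 1.46 in LP. From 39 to 20 days before calving it was 1.21, 0.951, 1.05, 3.01, 1.89 and 5.40. let-7e had a slope of 0.13 against days (adjusted p = 0.751, limma), and it was DE lower in LD than in HD (log2 change -0.81, unadjusted p = 0.0140, adjusted p = 0.935, limma). miR-99a-5p over let-7c was 0.563, 0.554, 0.588, 1.46, 1.11 and 2.09 in the same order of days, and let-7c had a slope of -0.31 (adjusted p = 0.310, limma). In the stage comparison let-7c was called higher in the non-lactating period (log2 change 0.70, SE 0.18, adjusted p = 0.00780, limma), and its difference from the 5 miRNAs was not tested. miR-125a over miR-125b stayed between 1.07 and 1.60 in all 12 libraries.

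**Figure D4:**
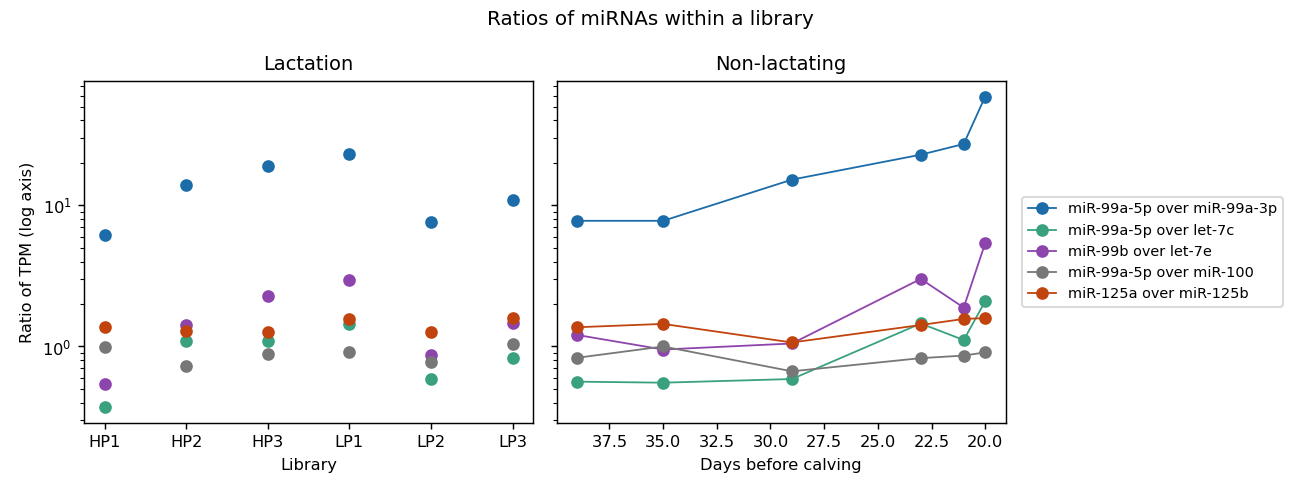
Ratios of TPM between miRNAs of the same library (log axes), for the 6 lactating libraries by name and the 6 non-lactating libraries by days before calving. miR-99a-5p over its opposite arm runs from 7.78 at 39 days to 59.1 at 20 days, while miR-99a-5p over miR-100 and miR-125a over miR-125b stay between 0.667 and 1.60 in every library.

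let-7a-5p, which shares the chromosome 15 cluster with miR-100 and miR-125b but is also encoded elsewhere, had a slope of -0.29 against days (adjusted p = 0.370, limma). let-7a-3p is listed from other let-7a precursors and so does not report on this cluster. It was called lower in the non-lactating period (log2 change -2.37, adjusted p = 0.00208) and had a slope of 1.28 (adjusted p = 0.0549, limma). The miR-10 miRNAs of the HOX clusters resemble miR-100 in sequence and followed the miR-99/100 course on normalized values. There the slopes per 10 days further from calving were -1.05 for miR-10b (adjusted p = 0.0234) and -0.92 for miR-10a (adjusted p = 0.0304, limma). Pearson's r with days was -0.933 and -0.912 (exact permutation p = 0.0139 and 0.0208, adjusted p = 0.158 and 0.184). As deposited, miR-10b went from 32646 TPM at 39 days to 76263 TPM at 20 days (r = -0.885, exact permutation p = 0.0208, adjusted p = 0.0898). miR-10a went from 3299 to 6098 TPM, with r of -0.807 (exact permutation p = 0.0667, adjusted p = 0.165).

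The likeness of pattern was measured as Pearson's r of log2 normalized TPM over the 12 libraries, among the 233 miRNAs with a mean of at least 10 TPM. All points share the libraries, their size factors and their depth, so the values are a description. The 3 miR-99/100 members were each other's nearest miRNAs, with r of 0.980 between miR-99a-5p and miR-100, 0.974 between miR-100 and miR-99b and 0.973 between miR-99a-5p and miR-99b. They are encoded on 3 chromosomes, but the uncertain split of reads between miR-99a-5p and miR-100 may enter their r. The next for all 3 was miR-1388-5p, with r of 0.898 to 0.942. miR-125a and miR-125b were each other's nearest (r = 0.914), followed by miR-181a (0.887) and miR-1388-5p (0.882) for miR-125a and by miR-2284w (0.850) and miR-181a (0.806) for miR-125b.

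By Pearson's r, each of the 5 miRNAs was closer to the members of its own family than to its cluster neighbours. Among all 387 other miRNAs, miR-125b ranked 43rd in likeness to miR-99a-5p (r = 0.658) and 26th to miR-100 (r = 0.728), and let-7c ranked 63rd to miR-99a-5p (r = 0.558). let-7e ranked 236th to miR-99b (r = -0.161), let-7a-5p 204th to miR-100 (r = -0.026) and miR-99a-3p 208th to miR-99a-5p (r = -0.033). Nearer cluster neighbours were miR-125a, 8th in likeness to miR-99b (r = 0.832), and miR-100 and let-7c, 7th (r = 0.728) and 9th (r = 0.707) to miR-125b. miR-10a ranked 4th in likeness both to miR-99a-5p (r = 0.926) and to miR-100 (r = 0.932). In TPM without size factors the nearest miRNA of each of the 5 was the same, but the ranks of cluster neighbours depended on scaling. There miR-125a was 20th in likeness to miR-99b (r = 0.677) and miR-100 was 88th to miR-125b (r = 0.504). let-7c stayed 9th in likeness to miR-125b (r = 0.777). By Spearman's rho on normalized values miR-1388-5p tied with miR-99b as nearest to miR-100 (rho = 0.958). By rho miR-125b was only 4th in likeness to miR-125a (0.860), behind miR-1388-5p (0.923), miR-181a (0.909) and miR-100 (0.881).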

How the data were processed

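Small RNA of 12 mammary biopsies was sequenced. The authors trimmed reads with Cutadapt and Trimmomatic, size-selected them, aligned them with Bowtie to ARS-UCD1.2 and counted miRBase miRNAs with miRDeep2, per the study's methods. The authors deposited RPM values, which they call TPM, rounded and without length correction, so weak miRNAs have coarse steps. Libraries were grouped by the labels. Days before calving came from the study's table of cows, matched by group and replicate number. The number of value columns left unused was 0.

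For 36 mature miRNAs with several precursors the entry with the highest mean was kept, which left 1 row for each miRNA. Depth was inferred from the step of the values (98.8% or more lay within 0.0055 TPM of a whole multiple in each library) and covers counting error only. Values analysed were log2(TPM / size factor + 1), with size factors by the median of ratios over the libraries of a fit. Printed normalized TPM used the factors of all 12 libraries. Fold changes are on this scale. limma 3.58.1 (R 4.3.3) with a mean-variance trend was fitted over all miRNAs, with Benjamini-Hochberg adjustment, and was tested on simulated data. The authors tested read counts, which were not used here. LP and HP, and LD and HD, were fitted over 6 libraries each with the DE rule of the study (unadjusted p under 0.05, absolute log2 change over 0.8). Stage and interaction used 12 libraries and the slope on days used the 6 non-lactating ones, called at an adjusted p under 0.05. Exact permutation tests and correlations used Python 3.11.15 and scipy 1.17.1. Alternatives were no size factors, pseudocounts of 0.1 and 5, a mean of at least 10 TPM, no trend, every precursor entry, a replicate block, all 12 libraries in 1 fit, phenotype or days after dry-off, and each library left out.

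The members, the marker lists and the tests were chosen with earlier results of these data known. Named besides the members are their cluster neighbours, opposite arms, miR-10a and miR-10b, and the 3 miRNAs most like each member. The skeletal muscle markers (2 of 3 listed, 89.1 to 726 TPM in sum) were not called in any comparison.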

Additional observations from a re-analysis of the deposited data

How the results depend on the processing

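With 3 libraries a group, no exact test of the phenotype differences can pass, and the tests on read counts that were planned were not run, since most libraries held too few low values to establish their whole reads. The 5 miRNAs lie far above the level of 3 reads, so the spread between cows and the scaling set the precision, not depth.

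The labels state no pairing of cows by replicate number. Deviations of same-numbered libraries correlated at -0.203, -0.259 and 0.012 (HP with LP) and 0.545, -0.114 and 0.503 (HD with LD). Replicates 1 and 3 of HD and LD thus deviated together. In HD and LD the numbers also follow days before calving (35 and 39, 29 and 23, 21 and 20 for replicates 1, 2 and 3). A replicate block and days therefore cannot be told apart there. The replicate block called 0 of the 5 in each of the 4 group comparisons, and 34 (LP over HP), 17 (LD over HD), 170 (stage) and 0 (interaction) of all miRNAs, against 39, 13, 172 and 0 without it.

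For LP over HP, a pseudocount of 5 called 22 miRNAs instead of 39. Leaving out each library called 24 to 53 of all miRNAs and 0 to 1 of the 5, and turned the sign of miR-99a-5p (0.16 without HP replicate 2, 0.08 without HP replicate 3, 0.12 without LP replicate 2, 0.02 without LP replicate 3), miR-99b (0.042 without HP replicate 2) and miR-100 (0.21 without HP replicate 2, 0.04 without LP replicate 3). Their ranges were -0.49 to 0.16, -0.69 to 0.042 and -0.67 to 0.21.

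For LD over HD, 13 miRNAs were called, 8 higher in LD and 5 lower. No size factors called 3, 0 higher and 3 lower, and moved the median of all miRNAs from 0.03 to -0.16. A pseudocount of 5 called 7 and a mean of at least 10 TPM called 8. Leaving out each library called 6 to 36 of all miRNAs and 0 to 2 of the 5, and turned the sign of miR-99a-5p (-0.14) and miR-99b (-0.059) without LD replicate 3, of miR-100 without HD replicate 1 (-0.15), LD replicate 2 (-0.03) or LD replicate 3 (-0.14), of miR-125a without HD replicate 3 (0.040) or LD replicate 1 (0.34), and of miR-125b without LD replicate 1 (0.18). The ranges were -0.14 to 1.14, -0.059 to 0.85, -0.15 to 1.08, -0.24 to 0.34 and -0.38 to 0.18 for miR-99a-5p, miR-99b, miR-100, miR-125a and miR-125b.

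For stage, a mean of at least 10 TPM called 114 miRNAs instead of 172. No size factors called 138, 82 higher and 56 lower against 86 and 86, and 3 of the 5. Leaving out each library called 0 to 5 of the 5. In the interaction the sign turned for miR-100 without HD replicate 1 (-0.038) and miR-99a-5p without LD replicate 3 (-0.058), with highest values of 1.2 and 1.19, and no size factors moved the median of all miRNAs from 0.04 to -0.11.

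For days before calving 42 miRNAs were called, 20 with a positive slope and 22 with a negative one. No size factors called 120 (114 and 6), no trend 21, phenotype as a covariate 24, and leaving out each library 0 to 39 of all miRNAs and 0 to 3 of the 5. No size factors turned miR-125a (0.044) and miR-125b (0.15). Days after dry-off called 1 of all miRNAs and 0 of the 5, with slopes of 1.68, 1.22, 1.73, 0.71 and 0.65 for miR-99a-5p, miR-99b, miR-100, miR-125a and miR-125b. Days after dry-off count up and days before calving count down, so slopes on them are not to be compared by sign. The cause of these changes was not tested.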
